A study of Mus musculus with 6 samples.

Results

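Rab GTPases were examined across 6 bulk RNA-seq libraries of mouse retinal ganglion cells, the output neurons of the retina, which send their axons through the optic nerve. The members were the genes whose symbol is Rab followed by a number and at most 1 letter and 1 digit, so that effectors and regulators were left out, and 57 of the 22413 genes in the count table met this rule. All 6 libraries came from adult mice of genotype Tgfbr1flx/flx, in which both copies of Tgfbr1, a receptor gene of the transforming growth factor beta pathway, are floxed. In 3 of them, called the Cre libraries, the mice also carried 1 Vglut2Cre allele (Tgfbr1flx/flx;Vglut2Cre/+), so that Cre recombinase is made under control of Slc17a6, the gene of vesicular glutamate transporter 2. The other 3, called the control libraries, were from Tgfbr1flx/flx;Vglut2+/+ mice without Cre. Cre under this driver acts in any cell that expresses Slc17a6, at present or earlier in development, and is not limited to ganglion cells. The labels do not say how the cells were isolated or whether a sample was 1 animal or a pool, so a p-value here speaks only of how far these samples spread, and that spread may be technical.

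Rab proteins are small GTPases that give each membrane compartment its identity. In the GTP-bound state a Rab sits on a membrane through prenyl groups at its C-terminus and recruits effectors such as tethers and motor adaptors, and after hydrolysis it is extracted by a GDP dissociation inhibitor. Neurons use Rabs for secretory traffic out of the endoplasmic reticulum and Golgi, for release of synaptic vesicles, and for the endosomal traffic that carries receptors along axons.

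Libraries held 7486359 to 21126291 gene counts, and levels are given as CPM, the counts scaled to a library's total. A count of 0 allows up to 3 counts, or 0.142 to 0.401 CPM depending on the library, which covers counting error only. The targeted gene, Tgfbr1, had 46, 0 and 793 counts in Cre libraries 1, 2 and 3 and 1, 0 and 1538 in control libraries 1, 2 and 3, and since whole-gene counts do not separate the floxed part they do not check the labels. Control 3 stood apart in its cell markers. It had 0 counts of Slc17a6, against 2101 to 13948 in the other 5 libraries, 1 count of the ganglion cell marker Thy1, against 556 to 6862, and a summed 6326 CPM of 10 endothelial markers, all detected, against 35.9 to 760 CPM and 1 to 8 detected. Of 15 ganglion cell markers, 7 to 12 were detected per library, and the defining factor Pou4f2 had at most 1 count in any library. Control 3 had the lowest sum of these 15, 884.5 CPM against 3890 to 7034 CPM, with 7 detected. Not all of them were low there. Rbpms was at 257 CPM in control 3, against 0.072 to 289 CPM elsewhere, and Pou4f1 at 85.1 CPM, against 0 to 265 CPM. In bulk RNA, fewer cells of a type and less RNA per cell cannot be told apart.

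Because many Rabs have close paralogs, the coding sequences of the members were first compared, to see how far a read can be assigned to 1 gene. Of 1596 pairs of members, 0 shared an exact run of 100 bases in their main coding sequences (GENCODE M21, GRCm38). The longest shared run, 38 bases, was between Rab1a and Rab1b. Shown are 60-base coding windows, each within 1 exon, of 4 paralog families whose members are described separately in the results. Each window is the one with the fewest differences from the first gene of its family, summed over the paralogs. In the line of the first gene, capitals mark the bases that differ in any paralog. In the line of a paralog, they mark its own differences from the first gene.
Rab3a: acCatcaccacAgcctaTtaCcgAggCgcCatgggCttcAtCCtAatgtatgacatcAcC
Rab3b: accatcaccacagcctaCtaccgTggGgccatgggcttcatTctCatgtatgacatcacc
Rab3c: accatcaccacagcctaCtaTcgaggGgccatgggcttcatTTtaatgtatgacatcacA
Rab3d: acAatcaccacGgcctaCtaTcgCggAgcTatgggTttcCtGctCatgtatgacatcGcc
Rab22a: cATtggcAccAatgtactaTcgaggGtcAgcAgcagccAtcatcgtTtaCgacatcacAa
Rab31: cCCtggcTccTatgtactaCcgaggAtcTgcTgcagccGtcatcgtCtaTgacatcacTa
Rab1a: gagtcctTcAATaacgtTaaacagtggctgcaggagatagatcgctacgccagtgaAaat
Rab1b: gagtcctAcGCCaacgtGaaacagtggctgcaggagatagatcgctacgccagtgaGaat
Rab2a: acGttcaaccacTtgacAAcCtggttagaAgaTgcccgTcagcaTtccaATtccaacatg
Rab2b: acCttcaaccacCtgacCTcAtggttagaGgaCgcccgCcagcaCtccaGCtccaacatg

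From Rab3a (chr8:70756474-70756533, plus strand, exon 3), the window differed at 5 bases in Rab3b (chr4:108923933-108923992, plus, exon 2), at 6 in Rab3c (chr13:110181011-110181070, minus, exon 3) and at 12 in Rab3d (chr9:21914895-21914954, minus, exon 3). Between Rab22a (chr2:173695117-173695176, plus, exon 4) and Rab31 (chr17:65697996-65698055, minus, exon 4) it differed at 12 bases. Rab1a (chr11:20224367-20224426, plus, exon 5) and Rab1b (chr19:5100739-5100798, minus, exon 5) differed at 6, and Rab2a (chr4:8578478-8578537, plus, exon 5) and Rab2b (chr14:52268668-52268727, minus, exon 5) at 11. Within these windows, each paralog thus carried bases that separate it from the first gene of its family. Only coding bases were compared.

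Some other annotated genes were closer than paralogs. Of the 57 members, 7 had stretches of 100 coding bases that also occur in a transcript of another gene. These were Rab11b (82.0% of its 100-base stretches, shared with Rab11b-ps2), Rab4b (82.0%, Gm21983), Rab43 (63.1%, Gm45140), Rab5b (46.2%, Gm13991), Rab7 (43.3%, Rab7-ps1), Rab8b (34.5%, Gm20689) and Rab11a (1.46%, Gm47308). The counts of these 7 genes are therefore uncertain to the extent that the authors' counting dropped or split shared reads. Exons of 20 members also overlapped those of another annotated gene, among them Rab3a with Mpv17l2, Rab6a with Mrpl48, Rab24 with Prelid1, Rab5a with Pp2d1, Rab2b with Tox4 and Rab10 with Rab10os, each on the opposite strand. The strand setting of the counting is not given in the sources used here, and without strand reads of such overlaps cannot be told apart.

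Rab genes were widely detected, and which ones were seen differed from library to library. At 10 counts or more, 30, 32 and 26 of the 57 genes were detected in Cre libraries 1, 2 and 3 and 22, 22 and 27 in control libraries 1, 2 and 3. The means were 29.3 ± 3.06 and 23.7 ± 2.89 genes (SD, n = 3 each), and at this minimum the groups overlapped, since Cre 3 lay below control 3. For all genes in the table the same counts were 5790 to 7209 in the Cre libraries and 4258 to 4863 in the controls, which did not overlap. The ratio of group means was 1.24 for the Rab genes and 1.45 for all genes. The overlap depended on depth and on the minimum. With all libraries thinned to a total of 7486359 counts, 29, 32 and 26 Rab genes were detected in the Cre libraries and 21, 22 and 25 in the controls, which did not overlap (means 29.0 ± 3.0 and 22.7 ± 2.08). At 3 counts the numbers were 37, 34 and 33 against 23, 24 and 31, again without overlap, while at 50 counts the groups overlapped. All genes, thinned alike, numbered 5756 to 6851 against 4077 to 4648, and the ratio of means was then 1.28 for the Rab genes and 1.43 for all genes.

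**Figure D1:**
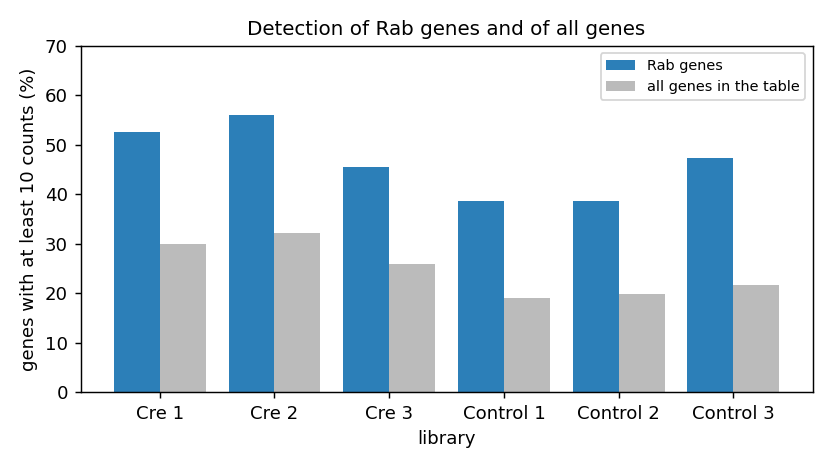
Share of genes with at least 10 counts in each library, in percent, for the 57 Rab genes (blue) and for all 22413 genes (grey), by library. Rab genes were detected at 38.6% to 56.1% and all genes at 19.0% to 32.2%, and control 3 lies above Cre 3 for the Rab genes but not for all genes.

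Of the 57 members, 45 reached 10 counts in some library (78.9%, where 53.4% of all genes did). Among those 45, 9 (20.0%) were detected in all 6 libraries, against 9.99% of all genes that reached 10 counts somewhere, and 10 (22.2%) in 1 library, against 32.7%. The 9 genes found in every library were Rab1a, Rab2a, Rab6a and Rab18 of the early secretory pathway, Rab3a of synaptic vesicles, Rab14, Rab11a and Rab11b of endosomes and recycling, and Rab7 of late endosomes. The 10 seen in 1 library were Rab29 in Cre 1, Rab30, Rab34 and Rab5c in Cre 2, Rab27b and Rab44 in control 2, and Rab13, Rab35, Rab3d and Rab43 in control 3. The remaining 12 members, Rab7b, Rab9b, Rab19, Rab20, Rab25, Rab26, Rab27a, Rab36, Rab37, Rab39, Rab40b and Rab42, had at most 7 counts in any library.

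**Figure D2:**
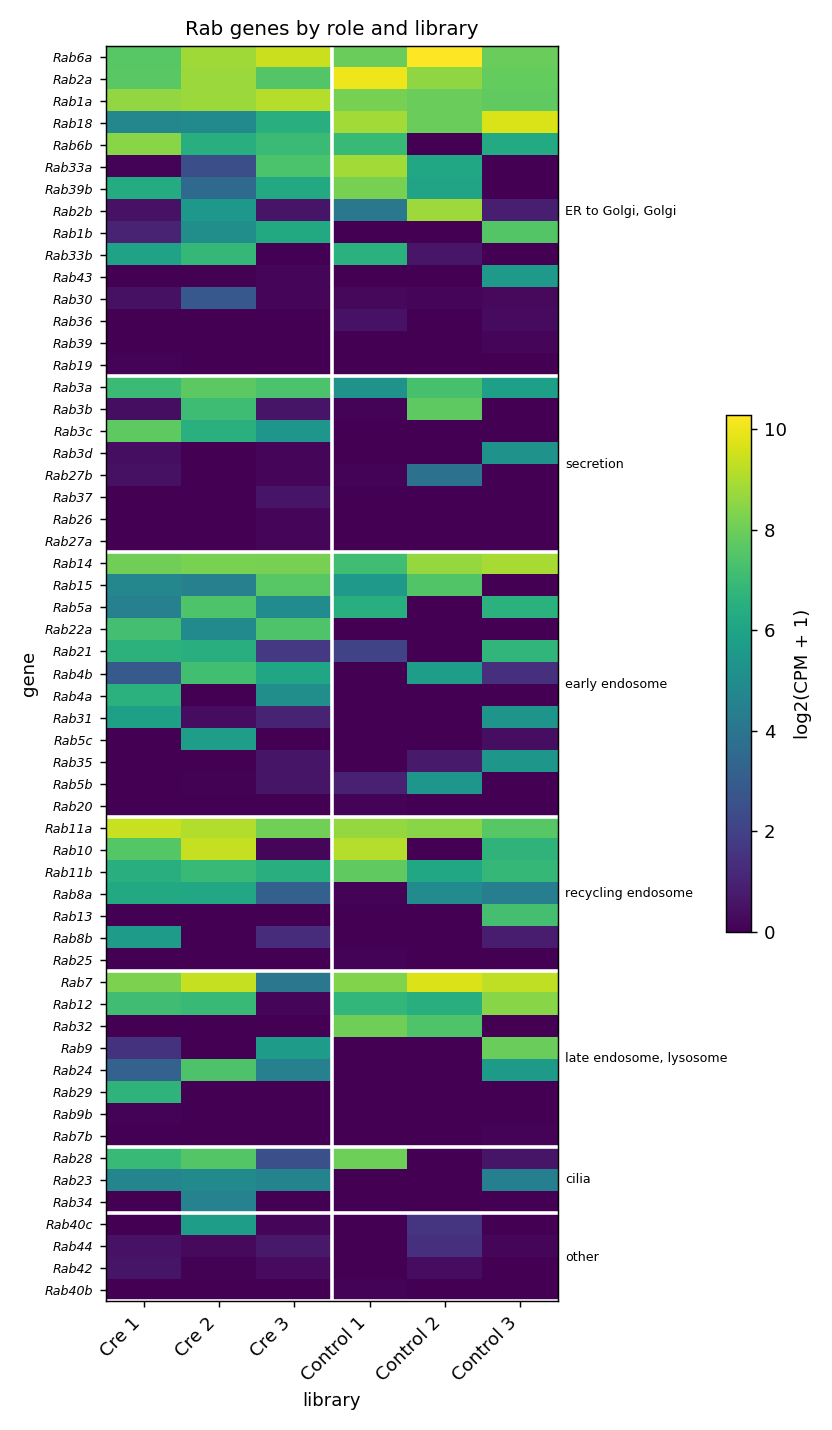
Level of each of the 57 Rab genes (rows, grouped by role and ordered by mean level) in each library (columns), as log2(CPM + 1) by colour. Rab6a, Rab2a, Rab1a, Rab14, Rab11a and Rab11b are bright in all 6 columns, while most rows switch between high and near 0 from library to library, also within a genotype.

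The same patchwork showed in the profiles. Across the 57 genes, which are not independent replicates, the Pearson correlation of log2(CPM + 1) lay at 0.60 to 0.70 for pairs of Cre libraries, at 0.36 to 0.67 for pairs of controls and at 0.38 to 0.64 for pairs that mixed the genotypes. Summed over the members, the Rab genes took 4135, 5491 and 3474 CPM in Cre libraries 1, 2 and 3 and 5454, 5301 and 4538 CPM in control libraries 1, 2 and 3, or 0.347% to 0.549% of all counts. The group means, 4367 ± 1028 and 5098 ± 491 CPM (SD, n = 3), lay within the spread of the libraries. In each library 5 genes held 48.2% to 62.7% of that sum. Per length, on the deposited FPKM scale, the highest Rab was Rab11a in Cre 1 (295.5), Rab7 in Cre 2 (250.5), Rab6a in Cre 3 (223.5), Rab2a in control 1 (379), Rab6a in control 2 (393) and Rab7 in control 3 (236).

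No Rab gene passed the main comparison of Cre with control. In that fit the common coefficient of variation between libraries of a genotype was 2.04, so a lack of calls does not show a lack of change. Of the 57 members, 29 passed the filter on low counts and were tested, and 0 had a Benjamini-Hochberg adjusted p under 0.05 in edgeR's quasi-likelihood test, as was so for 0% of all 5727 genes tested. At an unadjusted p under 0.05 there were 3 members, Rab3c and Rab22a with higher and Rab18 with lower fitted levels, against 4.91% of all tested genes (4.49% higher and 0.419% lower). That number was 6 of 57 with no filter, against 2.94% of all genes, 5 of 35 with 10 counts in at least 2 libraries, against 9.29%, and 5 of 29 in limma voom, against 12.2%. DESeq2 called 4 members, Rab3c, Rab22a and Rab4a as higher and Rab32 as lower with Cre, against 12.6% of genes higher and 2.39% lower. Limma voom called 2, Rab3c and Rab22a, both higher, against 1.43% of genes higher and 0.105% lower. By sign, 17 tested members had a positive and 12 a negative log2 fold change of Cre against control, against 54.2% positive among all tested genes, and with DESeq2's size factors in edgeR 2 of the 17, Rab5a and Rab28, turned negative. The median was 0.26 for the tested members and 0.14 for all tested genes, which became -0.13 with DESeq2's size factors. Setting the genes at 0 in the controls to their lower bound could not move the members' median, since these genes stay far above it.

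**Figure D3:**
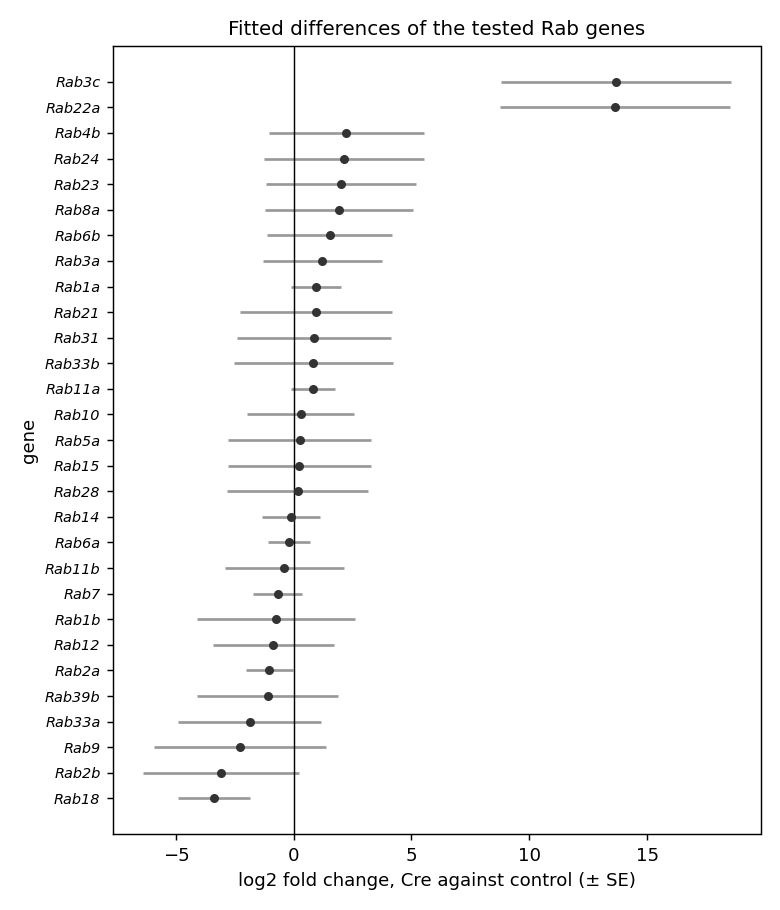
Fitted log2 fold change (Cre against control) with its standard error for the 29 tested Rab genes, ordered by size. The intervals of 1 SE cross 0 for most genes, Rab3c and Rab22a stand apart at the top because their control counts are all 0, and Rab18 lies lowest at -3.38.

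Some members separated the genotypes completely, at shares near those of all tested genes. In 4 tested members (13.8%) the lowest Cre library exceeded the highest control library. These were Rab1a, Rab3c, Rab22a and Rab23, and 10.4% of all tested genes had this order. The reverse order was found for 1 member, Rab18 (3.45%), against 2.3% of all tested genes. Without control 3 the first group became 7, with Rab1b, Rab24 and Rab31 added, against 19.4% of all tested genes, and the second still held Rab18 alone, against 7.07%. The summed level of 8 Müller glia markers also separated the genotypes, at 131, 228 and 509.5 CPM in the Cre libraries and 512, 779 and 732 CPM in the controls, with Cre 3 and control 1 nearly equal. Of these 8, 3 were detected in each Cre library and 2, 4 and 4 in the controls. The defining marker Rlbp1 had 2493 counts in control 3 and at most 1 elsewhere, and the sum was mostly of Clu, Glul, Apoe and Slc1a3. Of the 8, only Clu had all Cre libraries below all controls. Some markers of other lists had the reverse order. The ganglion cell marker Stmn2 was at 1299, 1532 and 726 CPM in the Cre libraries and 209, 556 and 36.3 CPM in the controls. The horizontal cell marker Onecut2 was at 521, 155 and 142 CPM against 0.172, 0.801 and 123 CPM. The summed levels of the ganglion cell and horizontal cell lists overlapped between genotypes. The part of these markers in the results for Rab1a, Rab3c, Rab22a, Rab23 and Rab18 was not tested.

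Rabs of the early secretory pathway carried the largest share of Rab counts. Rab1a, which directs vesicles from the endoplasmic reticulum to the Golgi (chromosome 11, 20201432 to 20226856), was at 390.0, 424 and 568 CPM in Cre libraries 1, 2 and 3 and at 290.1, 239.5 and 217 CPM in control libraries 1, 2 and 3. All Cre values lay above all control values, with means of 461 ± 94.4 and 249 ± 37.5 CPM (SD, n = 3). Its log2 fold change was 0.96 ± 1.07 (SE), with an unadjusted p of 0.38 in edgeR's quasi-likelihood test, and it stayed positive in every alternative run. Its paralog Rab1b did not track it, with 14, 691 and 602 counts in the Cre libraries and 0, 0 and 3004 in the controls. The sign of Rab1b, -0.76 as fitted, was positive without control 3, the library with high endothelial markers, whose part in this was not tested.

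Rab18, a Rab of the endoplasmic reticulum and lipid droplets, showed the reverse arrangement. It was at 25.7, 29.2 and 89.6 CPM in Cre libraries 1, 2 and 3 and at 459, 241 and 816 CPM in control libraries 1, 2 and 3. The highest Cre value lay below the lowest control value, with means of 48.2 ± 35.9 and 505.5 ± 290.3 CPM. The log2 fold change was -3.38 ± 1.52, with an unadjusted p of 0.0366 and an adjusted p of 0.85 in edgeR's test. Over the alternatives it ran from -4.08 to -2.94 and its adjusted p from 0.3535 to 1, so that the direction held and no fit called it. Without control 3, the library with high endothelial markers, it was -2.94. The summed Müller glia markers were lower in the Cre libraries as well (log2 ratio -1.22). Of these markers only Clu was lower in every Cre library than in every control, while Glul, Apoe and the others overlapped. Clu was at 31.5, 179 and 0.247 CPM against 387, 359 and 318 CPM, and its part in the result for Rab18 was not tested.

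Rab2a, which acts between the Golgi and the endoplasmic reticulum and in lysosome fusion, was at 200.1, 423 and 184 CPM in the Cre libraries and at 1036, 384 and 229 CPM in the controls. The groups overlapped, and the fold change rested on control 1, being -1.03 ± 0.99 with it and 0.05 without it. Rab2b was uneven, with 3274 counts in control 2 and 921 in Cre 2 and at most 191 in the other 4. Rab6a, which serves Golgi exit and retrograde traffic, was at 193, 444 and 704 CPM in the Cre libraries and at 244, 1239 and 245 CPM in the controls, with a log2 fold change of -0.20 ± 0.89. Its neuronal paralog Rab6b was at 349.8, 85.4 and 128 CPM in the Cre libraries and at 125, 0 and 77.8 CPM in the controls (1.53 ± 2.65).

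Neuron-enriched and smaller Golgi members were detected irregularly in both genotypes. Rab33a had 1, 96 and 1343 counts in the Cre libraries and 5408, 524 and 0 in the controls, and Rab33b, which binds the autophagy protein Atg16l1, had 836, 2438 and 0 against 1076, 4 and 0. The X-linked gene Rab39b, mutated in a human intellectual disability, had 1098, 222 and 598 counts against 3312, 468 and 0. All 3 overlapped between genotypes, and all 3 had 0 counts in control 3, which also lacked Slc17a6. Rab43, with 744 counts in control 3 and at most 1 elsewhere, and Rab30, with 128 counts in Cre 2 and at most 5 elsewhere, were not tested. Together the 15 genes of this group took 1300, 1619 and 1989 CPM in the Cre libraries and 3015, 2674 and 1815 CPM in the controls, with overlap through control 3.

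The secretory Rabs, which prime vesicles for regulated release, included a gene seen in every Cre and in no control library. Rab3c, a synaptic vesicle Rab (chromosome 13, 110054187 to 110280996), had 2914, 1917 and 338 counts in Cre libraries 1, 2 and 3, or 209, 90.7 and 41.7 CPM. None of the controls had a count of it. With a floor of 3 counts over the control group, it was at least 1416-fold higher with Cre. This bound, for counting error alone, ran from 762 without control 3 to 1745 without Cre 2. For Rab3c the unadjusted p in edgeR's quasi-likelihood test was 0.0113 and the adjusted p 0.681, while the adjusted p was 0.00253 in DESeq2 and 0.0337 in limma voom. Over all alternatives its adjusted p ran from 0.00253 to 1, and no edgeR fit called it.

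Rab3a, the main Rab of synaptic vesicles, was present in every library, at 128, 206.5 and 165 CPM in the Cre libraries and at 36.8, 153 and 54.7 CPM in the controls. The groups overlapped through control 2, and the log2 fold change was 1.22 ± 2.54. Rab3b was seen in 1 library of each genotype, with 2879 counts in Cre 2 and 1581 in control 2 and at most 4 in the other 4 libraries. Rab3d, which is known from secretory granules outside neurons, had 603 counts in control 3 and at most 4 elsewhere. The 4 paralogs thus had 4 different patterns over the same 6 libraries, and the windows printed above show that they differ in sequence.

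Other Rabs of regulated secretion were nearly absent. Rab27b had 99 counts in control 2 and at most 5 elsewhere, and Rab27a, Rab26 and Rab37 had at most 1, 1 and 4 counts in any library. The 8 genes of the group together took 338, 433.5 and 208 CPM in the Cre libraries and 36.9, 378 and 91.6 CPM in the controls. The groups overlapped through control 2. The means were 327 ± 113 and 169 ± 183 CPM, a log2 ratio of 0.95, which was 2.35 without control 2.

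**Figure D4:**
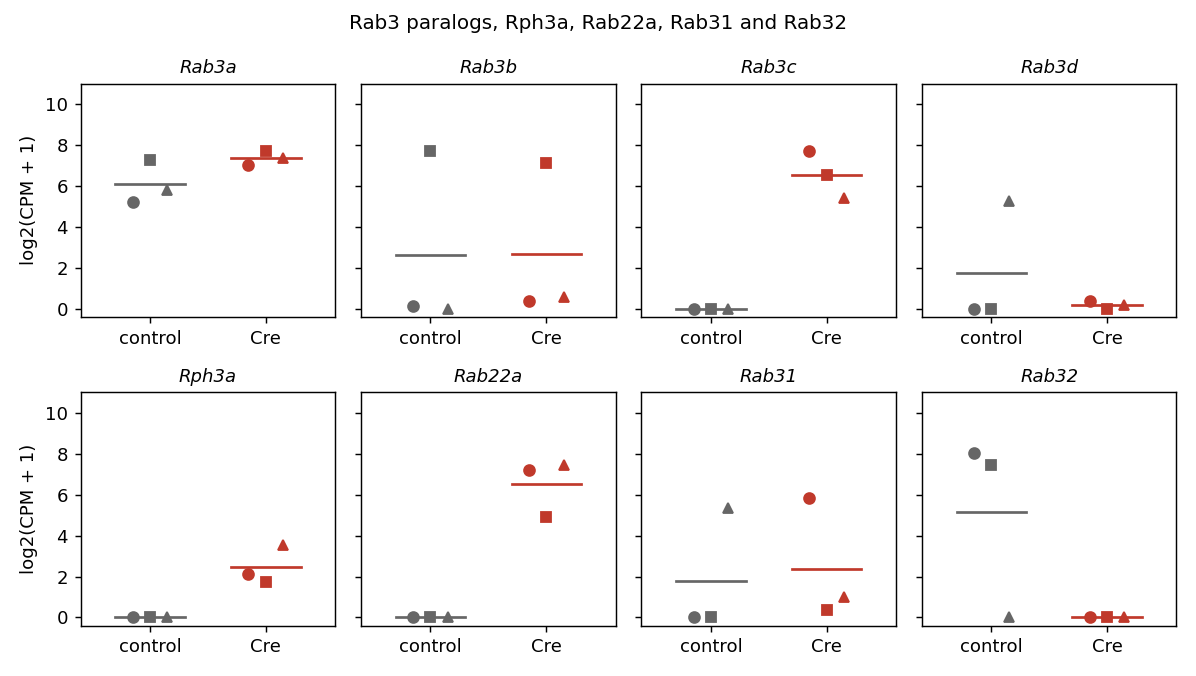
Level as log2(CPM + 1) in each library for the 4 Rab3 paralogs, the Rab3 effector Rph3a, Rab22a and its paralog Rab31, and Rab32, by genotype (circles, squares and triangles are libraries 1, 2 and 3, horizontal lines are means). Rab3c, Rph3a and Rab22a are at 0 in all 3 controls and above 0 in all 3 Cre libraries, and Rab32 is above 0 in controls 1 and 2 alone.

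Rab22a, an endosomal Rab that sorts cargo between early endosomes, recycling tubules and the Golgi (chromosome 2, 173659760 to 173707343), had the same arrangement as Rab3c. It had 2035, 617 and 1405 counts in Cre libraries 1, 2 and 3, or 146, 29.2 and 173.5 CPM, and 0 in every control. That is at least 1111-fold higher with Cre at the same floor, and from 598 without control 3 to 1846 without Cre 2. The unadjusted p was 0.0117 and the adjusted p 0.681 in edgeR's quasi-likelihood test, with adjusted p-values of 0.00253 in DESeq2 and 0.0353 in limma voom and a range of 0.00253 to 1 over all alternatives. Its close paralog Rab31 had 777, 6 and 8 counts in the Cre libraries and 0, 0 and 641 in the controls. Rab3c and Rab22a were the 2 members detected in all Cre and in no control library, 4.44% of the 45 detected members, where 2.29% of all detected genes had this pattern. The reverse pattern, all controls and no Cre library, was found for 0 members and for 0.134% of all detected genes.

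Early endosome Rabs otherwise overlapped between genotypes. Of the 7 tested members of this group, Rab22a included, 6 had a positive log2 fold change (85.7%), against 54.2% of all tested genes. The signs of Rab5a, Rab14, Rab15 and Rab31 turned in some alternatives. Rab5a, the master Rab of early endosome fusion, was at 21.2, 172 and 30.4 CPM in the Cre libraries and at 89.7, 0 and 92.8 CPM in the controls, whereas its paralogs were each seen in few libraries. Rab5b had 307 counts in control 2 and 11 in control 1, and Rab5c had 1099 counts in Cre 2, with at most 5 counts of either gene in any other library. Rab14, which works between the Golgi and endosomes, was the steadiest member among the Cre libraries relative to its level, at 261, 297 and 290.2 CPM, and stood at 139, 399.8 and 490.0 CPM in the controls, which enclosed the Cre values (log2 fold change -0.12 ± 1.23).

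Rapid recycling depends on Rab4 and Rab35. Rab4a had 1295, 0 and 268 counts in the Cre libraries and none in the controls, which puts it at least 428-fold higher over the group. That bound, for counting error alone, was 108 without Cre 1 and 839 without Cre 2. Rab4a fell under the main filter on low counts. With no filter its adjusted p in edgeR's quasi-likelihood test was 0.5245, with 10 counts in at least 2 libraries 0.376, and DESeq2 gave 0.0153. Rab4b had 90, 2994 and 532 counts in the Cre libraries and 0, 391 and 26 in the controls, with a log2 fold change of 2.24 ± 3.29. Rab35 had 695 counts in control 3 and at most 5 elsewhere.

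Rab21, an endosomal Rab that binds integrin tails, had 1351, 1835 and 18 counts in the Cre libraries and 39, 0 and 1760 in the controls. Rab15, found mainly in neural tissue, had 358, 447 and 1591 counts against 519, 1349 and 0. Both overlapped between genotypes. The 12 genes of early endosomes and fast recycling summed to 706, 801 and 793 CPM in the Cre libraries and 278, 674 and 774 CPM in the controls, so that Cre 1 lay below control 3 and the groups overlapped.

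Recycling endosome Rabs were led by Rab11a, which returns receptors to the plasma membrane and supplies growing axons. It was at 689.5, 542 and 274 CPM in the Cre libraries and at 398, 347 and 191.5 CPM in the controls. The groups overlapped through Cre 3, and the log2 fold change was 0.82 ± 0.95. Rab11b was at 88.5, 126 and 85.0 CPM in the Cre libraries and at 214, 69.6 and 114 CPM in the controls. Because most of its coding sequence recurs in Rab11b-ps2, that level is uncertain.

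**Figure D5:**
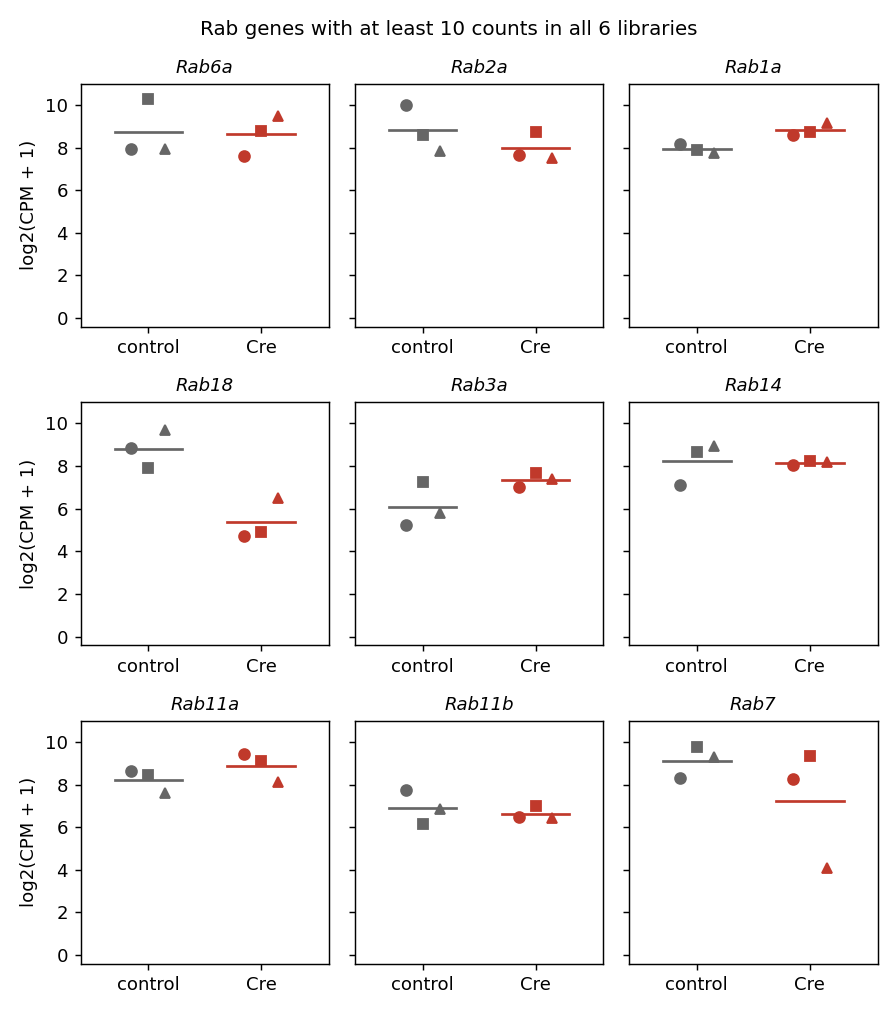
Level as log2(CPM + 1) of the 9 Rab genes with at least 10 counts in all 6 libraries, by genotype (circles, squares and triangles are libraries 1, 2 and 3, horizontal lines are means). Rab1a and Rab18 are the genes whose genotypes do not overlap, in opposite directions, and Rab7 has 1 low value, in Cre 3.

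Rabs that carry vesicles to the plasma membrane switched between high and absent. Rab10 was at 190.0 and 668 CPM in Cre libraries 1 and 2 and at 0.12 CPM, 1 count, in Cre 3, and it was at 561, 0 and 101.5 CPM in controls 1, 2 and 3. In Cre 3 the antisense gene Rab10os, whose exons overlap those of Rab10, had 1126 counts, and it had 0 in the other 5 libraries. Rab8a, a Rab of polarised and ciliary traffic, had 1034, 1450 and 64 counts in the Cre libraries and 1, 223 and 325 in the controls, and Rab8b had 684 counts in Cre 1 and at most 12 elsewhere. Rab13, which acts at cell junctions of epithelial and endothelial cells, had 2472 counts in control 3 and 0 in the other 5 libraries. The high endothelial markers of control 3 stand beside this value, and their part in it was not tested.

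Late endosome and lysosome Rabs had their highest common member in Rab7, which drives late endosome maturation and the transport of neurotrophin-receptor endosomes. Rab7 was at 303.5, 657 and 15.8 CPM in Cre libraries 1, 2 and 3 and at 316.5, 863 and 618 CPM in the controls. Cre 3 alone was low, the other values overlapped, and the log2 fold change was -0.68 ± 1.05. Rab12, a Rab of lysosomal degradation, was at 140, 123.5 and 0.12 CPM in the Cre libraries and at 110, 86.7 and 348 CPM in the controls, so that Cre 3 was again the low library. Summed over its 8 genes, this group took 555.5, 948 and 86.2 CPM in the Cre libraries and 692, 1125 and 1258 CPM in the controls, a log2 ratio of -0.95 that was -0.45 without Cre 3.

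Rab32, a Rab of lysosome-related organelles and mitochondria (chromosome 10, 10545002 to 10558265), was seen in controls 1 and 2, with 3087 and 1314 counts, and had 0 counts in control 3 and in every Cre library. In pooled counts it was at least 1785-fold lower with Cre, although control 3 was at 0 like the Cre libraries. That bound, for counting error alone, was 792 without control 1 and 3316 without control 3. Rab32 too fell under the main filter. Its adjusted p was 0.5245 in edgeR with no filter, 0.376 with 10 counts in at least 2 libraries and 0.00459 in DESeq2. Rab9, which returns cargo from late endosomes to the Golgi, had 26, 0 and 398 counts in the Cre libraries and 0, 0 and 3989 in the controls. Rab24, linked to autophagy, had 117, 3535 and 171 counts against 0, 0 and 777, and Rab29, a partner of the kinase Lrrk2, had 1423 counts in Cre 1 and 0 elsewhere. With Rab9 and Rab24 the controls again rested on control 3 alone.

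Ciliary Rabs and the remaining members were detected unevenly. Rab23, a regulator of Hedgehog signalling (chromosome 1, 33719887 to 33742564), was even across the Cre libraries, at 24.8, 28.2 and 23.3 CPM, and stood at 0, 0 and 20.6 CPM in the controls. Its genotypes did not overlap, but the gap between the lowest Cre value and control 3 was small and the log2 fold change was 2.01 ± 3.19. Rab28, known from photoreceptor cilia, had 1655, 3821 and 38 counts in the Cre libraries and 3006, 0 and 8 in the controls, although the photoreceptor markers summed to at most 13.0 CPM in any library. Rab34 had 471 counts in Cre 2 and 0 elsewhere, Rab40c 1139 in Cre 2 and at most 15 elsewhere, and Rab44 at most 12 in any library.

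The proteins that load, recycle and read Rabs were described from a list of 141 symbols, of which 134 were in the table. Of 61 that passed the filter, 0 had an adjusted p under 0.05 in edgeR, 30 were positive and 31 negative by log2 fold change, and 2 reached an unadjusted p under 0.05, both higher with Cre (against 4.91% of all tested genes in either direction). DESeq2 called 9 of 63 with an adjusted p, 7 higher and 2 lower, against 12.6% of all genes higher and 2.39% lower. Limma voom called 1, higher, against 1.43%. Their median log2 fold change was -0.04, against 0.14 for all tested genes. At 10 counts or more, 59, 72 and 62 were detected in the Cre libraries and 39, 47 and 47 in the controls, which did not overlap, as for all genes.

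Of the machinery that all Rabs share, Gdi2, a GDP dissociation inhibitor, had 3807, 8150 and 8144 counts in the Cre libraries and 14065, 2653 and 633 in the controls, a log2 fold change of -0.04 ± 0.96 whose sign turned with the processing. Rabac1, the prenylated Rab acceptor, was detected in every library, with 4583, 9898 and 5173 counts against 1348, 3558 and 2217 (1.16 ± 1.11).

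The prenylation enzymes were detected unevenly. Rabggtb, the catalytic subunit of Rab geranylgeranyl transferase, had 3868, 351 and 253 counts in the Cre libraries and 0, 0 and 74 in the controls, and all Cre libraries lay above all controls in CPM, with a log2 fold change of 6.43 ± 3.94. Rabggta, the other subunit, had 592 counts in Cre 2 and at most 4 elsewhere. The escort protein Chm had 531, 606 and 229 counts against 839, 1 and 1, and its homolog Chml had 1061 counts in Cre 3, 1860 in control 1 and at most 2 elsewhere. Rabif had 453 counts in Cre 1 and 1955 in control 3 and 0 elsewhere.

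Among effectors, Rph3a, the synaptic vesicle protein rabphilin that binds Rab3, had 46, 48 and 87 counts in the Cre libraries and none in the controls, which puts it at least 49.6-fold higher (26.7 without control 3 to 71.4 without Cre 2). The unadjusted p was 0.00894 and the adjusted p 0.681 in edgeR's quasi-likelihood test, while the adjusted p was 0.0383 in DESeq2 and 0.367 in limma voom. It shared this arrangement with Rab3c, at lower counts, whereas Rab3a, which it also binds, was present in all libraries. Rph3a was named for its small p. Of the 113 regulators and effectors that reached 10 counts somewhere, 2 were detected in all Cre and no control library. That is 1.77%, against 2.29% of all detected genes. Among exchange factors, Dennd4a, which activates Rab10, had 2886, 2235 and 987 counts against 0, 0 and 1, with an unadjusted p of 0.0121 and an adjusted p of 0.681 in the same test, and adjusted p-values of 0.00229 in DESeq2 and 0.0337 in limma voom. Rab10 itself overlapped between genotypes. The other effectors named by the rule, Exoc6 (log2 fold change 3.19 ± 2.79), Mical3 (-4.19 ± 3.55) and Plekhm2 (-3.01 ± 3.46), the exchange factors Trappc10 (6.80 ± 4.08), Sbf1 (5.07 ± 3.33) and Ccz1 (-5.37 ± 3.80), and the GTPase-activating proteins Tbc1d23 (4.71 ± 3.49), Usp6nl (-3.06 ± 3.44), Tbc1d22a (1.998 ± 3.36) and Tbc1d9b (1.33 ± 2.99) overlapped between genotypes.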

How the data were processed

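The authors deposited 2 tables, raw gene counts and FPKM, with a column for each sample and 0 columns of other samples. The submitters' processing notes name DESeq2, R 3.2.0, HTSeq, HISAT2, fastp and the mm10 build, with no role stated, whereas a gene annotation is not given in the sources used here. As input, 1 ng of total RNA entered each library (VAHTS Universal V6), per the labels' protocols. In the deposited FPKM each value is the count over a gene length and the library's total (implied lengths varied by at most 6.5e-07 of their value). Counts were the main measure.

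Genotypes were compared with edgeR 4.0.16 (TMM scaling and filterByExpr, then the robust quasi-likelihood test with Benjamini-Hochberg adjustment over all genes tested and a threshold of 0.05) in R 4.3.3, checked on simulated counts. Standard errors are the fold change over the root of F. Alternatives were DESeq2 1.42.0, limma 3.58.1, other scalings, filters and pseudocounts, a replicate block and each library left out. Lower bounds on folds use 3 counts over a group, and cover counting error only, not the spread between libraries. The members and the lists of roles, regulators and markers were chosen with earlier results of these data known. Named were all members, the shared machinery, and up to 4 tested regulators per list with the smallest p, except 1 gene that is not reported here. Coordinates and coding sequences are from GENCODE M21 (GRCm38, the assembly called mm10), where all 57 members were found. Python 3.11.15 was used for sums and sequences.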

Additional observations from a re-analysis of the deposited data

How the results depend on the processing

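Over 15 alternatives, the 29 tested Rab genes gave 432 values, of which 387 kept sign and side of the threshold, 4 were newly called and 41, in 15 genes, had the other sign. The 4 were Rab3c and Rab22a in DESeq2 and limma voom. Adjusted calls among the members were 4 in DESeq2, 2 in limma voom and 0 in the 13 other alternatives, and among regulators 9 and 1. Members at an unadjusted p under 0.05 numbered 3 as reported, 6 with no filter, and 5 with 10 counts in at least 2 libraries and in limma voom, against the shares of all genes given above. The difference in detected members, 5.67 genes, was 8.67 at 3 counts. The summed secretory Rabs had a log2 ratio of 0.95, and 0.48 to 2.35 with 1 library left out. Members with all Cre libraries above all controls numbered 5 to 7 with 1 library left out, and below, 1 to 4, against 13.6% to 19.4% and 3.74% to 7.96% of all tested genes. This alternative, and the bounds on folds with 1 library left out, were chosen after seeing the data.

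With the replicate block the fold changes of Rab10 (-1.45), Rab14 (0.0143), Rab1b (6.29), Rab5a (-0.23), Rab9 (1.02), Gdi2 (0.76) and Mical3 (1.27) had the other sign, and 0 members were called. Libraries of the same number did not deviate together (r = -0.02, 0.03 and -0.01 for numbers 1, 2 and 3), and Cre 1 correlated best with control 3 (0.06). The labels do not say whether libraries of the same number share a source. Because many genes switch between high and absent from library to library, values this small cannot exclude it. With voom, log2(FPKM + 1) and log2(FPKM + 0.1), Rab1b was 4.71, 1.19 and 2.96, Rab39b 2.14, 0.15 and 1.13, and Gdi2 1.46, 0.86 and 0.89. Rab9 was 1.48 with voom and 0.45 on log2(FPKM + 0.1), and Rab6a 0.28 with voom. Rab28 was -0.028 and -0.0353 and Rab5a -0.03 and -0.0425 with DESeq2's size factors and DESeq2, and Gdi2 0.0658 with column totals. The cause was not tested.

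With 1 library left out, log2 fold changes ran from -1.06 to 2.54 for Rab10, -0.81 to 0.29 for Rab11b, -0.46 to 0.26 for Rab14, -1.37 to 1.57 for Rab15, -1.78 to 11.71 for Rab1b, -0.0777 to 12.64 for Rab24, -0.49 to 8.72 for Rab28, -1.46 to 0.0474 for Rab2a, -7.94 to 0.57 for Rab2b, -4.42 to 11.09 for Rab31, -6.43 to 0.92 for Rab33a, -1.74 to 1.23 for Rab39b, -1.23 to 0.68 for Rab5a, -0.60 to 0.77 for Rab6a, -6.14 to 10.61 for Rab9, -0.35 to 8.51 for Chm, -0.72 to 1.77 for Gdi2 and -4.76 to 1.37 for Mical3. Each such fit that leaves 2 libraries in a genotype filters anew, so different genes are tested. Members near 0 in a genotype are limited by depth to a bound.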

Other observations

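Rab-like genes outside the naming rule were as uneven as the members. Rabl3, a Rab-like GTPase, had 3276 counts in control 1 and 0 in the other 5 libraries. Rabl6 had 0, 365 and 224 counts in Cre libraries 1, 2 and 3 and 283, 400 and 0 in control libraries 1, 2 and 3. Of the genes whose exons overlap a member on the opposite strand, Prelid1 beside Rab24 had 639, 1364 and 1738 counts in the Cre libraries and 378, 48 and 0 in the controls, and Mrpl48 beside Rab6a had 8, 5310 and 0 against 5591, 0 and 0. Tox4 beside Rab2b had 1085, 0 and 127 counts against 96, 0 and 925, with 0 in Cre 2 and control 2, where Rab2b was highest.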
